A study of Mus musculus with 8 samples.

Results

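The cytosolic ribosomal protein genes code for the proteins of the small and the large subunit of the ribosome. They were taken from the gene table of mouse CD8 T cells by name: symbols that start with Rpl or Rps and a digit, with Rpsa, Rplp0, Rplp1 and Rplp2, without pseudogene symbols and without the Rps6k kinases, and with at least 800 counts summed over the libraries. The rule gave 83 of 31815 genes, 33 of the small subunit and 48 of the large subunit. The other 2, Rpl7l1 and Rps19bp1, carry such names but code for proteins that are not part of the mature ribosome. Rps27l, Rps27rt, Rpl22l1 and Rpl36al are further copies of subunit genes, and Fau, which also codes for a ribosomal protein, falls outside the naming rule.

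The cells were CD8 T cells from spleens of OT-I mice, a strain with a transgenic T cell receptor that recognises an ovalbumin peptide. All cultures were stimulated with that peptide for 3 days, received a construct 24 h after the start, and were sorted on day 5. The groups were TOXFL GFP+, TOXFL GFP-, TOXdeltaN GFP+ and TOXdeltaN GFP-, with 2 libraries each and 8 in all. GFP, made from the same transcript as the TOX construct, marked cells that carried it, and GFP+ means the brightest 20% of the GFP+ cells. GFP- cells came from cultures given the same construct, so all 4 groups share the stimulation, and no cells with a GFP-only vector were analysed here. The labels do not say whether replicates 1 and 2 came from separate mice or cultures, so the p-values reflect only how far these libraries scatter, and that scatter may be technical.

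A ribosome needs one copy of nearly every ribosomal protein, and their mRNAs are among the most abundant of a growing cell. Many of these mRNAs begin with a 5′ TOP element, a C followed by a run of pyrimidines, through which mTOR signalling and LARP1 control their translation and stability as a group. Activated CD8 T cells grow and divide fast and make many ribosomes. Surplus Rpl5 and Rpl11 outside the ribosome bind Mdm2 and so raise p53, and Rps27l is itself a p53-inducible gene in human cells.

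Start regions of 4 of the genes are shown because the results below turn on Rps27l and its relatives Rps27 and Rps27rt, with Rps6, the substrate of the S6 kinases, as a typical TOP gene. The letters run from 35 bases before the listed start to 15 bases from it on, in the direction of the gene, and capitals mark the longest pyrimidine run that touches the 10 bases on either side of the start. Positions and letters are from RefSeq on GRCm38.p6.
Rps27l, chr9:66946051-66946100, + strand: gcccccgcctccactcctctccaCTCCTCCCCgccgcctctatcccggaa
Rps27, chr3:90213634-90213683, - strand: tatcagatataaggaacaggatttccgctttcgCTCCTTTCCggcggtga
Rps27rt, chr9:114982725-114982774, - strand: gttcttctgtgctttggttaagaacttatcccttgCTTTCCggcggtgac
Rps6, chr4:86857353-86857402, - strand: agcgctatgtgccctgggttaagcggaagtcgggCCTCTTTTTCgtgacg
In Rps27, Rps27rt and Rps6 the run lies across or at the listed start, and Rps27 and Rps27rt continue with the same letters after it. In Rps27l, for which the table lists 2 starts and the first is shown, the marked run is 9 bases long and lies before the start, and a shorter run of pyrimidines follows just after the start. Of the 83 genes, 63 had an entry in the promoter table. A C at the first base followed by at least 4 pyrimidines, searched on the gene's own strand alone, was present in 14 of these 63 genes (22.2%) and in 813 of all 27025 genes of the table (3.01%). Such a run touching the 10 bases on either side of the start was present in 41 of the 63 (65.1%) and in 38.7% of all genes. These are matches of letters, and no start was measured here.

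Each library held between 25059112 and 31240067 counts, and the single member counts lay between 501 and 52087. Tox itself averaged 116 ± 15.2 CPM (the count scaled by library size, as edgeR computes it) in TOXFL GFP+ cells against 29.7 ± 6.59 in TOXFL GFP- cells, and 95.0 ± 17.2 CPM in TOXdeltaN GFP+ cells against 27.0 ± 7.33 in TOXdeltaN GFP- cells (SD, n = 2 each). The 6 CD8 T cell markers in the table summed to 3258 to 3689 CPM in GFP+ libraries and 3405 to 3559 CPM in GFP- libraries. Cd4 was at 0 to 1.22 CPM and the B cell markers together at 13.5 to 16.9 CPM. The NK, myeloid and erythroid lists each stayed under 2.5 CPM. Replicate 2 of both GFP+ groups stood apart from the other libraries in the ribosomal protein genes, as described below, and the medians, counts and genes named as resting on them are also given without them.

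All 83 genes were detected in every library, and their levels spanned a wide range. Per kilobase of transcript, the mean over the 8 libraries was highest for Rpl13 (2182 CPM per kb), followed by Rpl32 (1689), Rps19 (1322), Rps18 (1320) and Rpl41 (1237). Rps19, Rps18 and Rpl41 differ in order by less than their spread between libraries. The lowest were Rps19bp1 (24.8 CPM per kb), Rps20 (85.7), Rpl7l1 (113), Rpl22l1 (125) and Rps24 (159). The Rps20 count was divided by a principal transcript of 3706 bases, far longer than that of most members. For Rps24 the principal transcript had 1613 bases, while the median over its coding transcripts was 525 bases. Its low rank thus depends on the transcript used. The median was 451 CPM per kb over all 83, 508 over the small subunit and 427 over the large subunit. The 2 genes that are not subunits were thus both among the lowest 5. Below the count minimum were 3 more names of the family: Rpl39l had 30 counts, Rpl3l had 2 and Rpl10l had 0 over all libraries, whereas the member nearest the minimum, Rps19bp1, had 4779 and the next, Rpl22l1, had 15725. Rpl10l and Rpl39l are testis-expressed copies, and Rpl3l is a copy of heart and skeletal muscle.

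**Figure D1:**
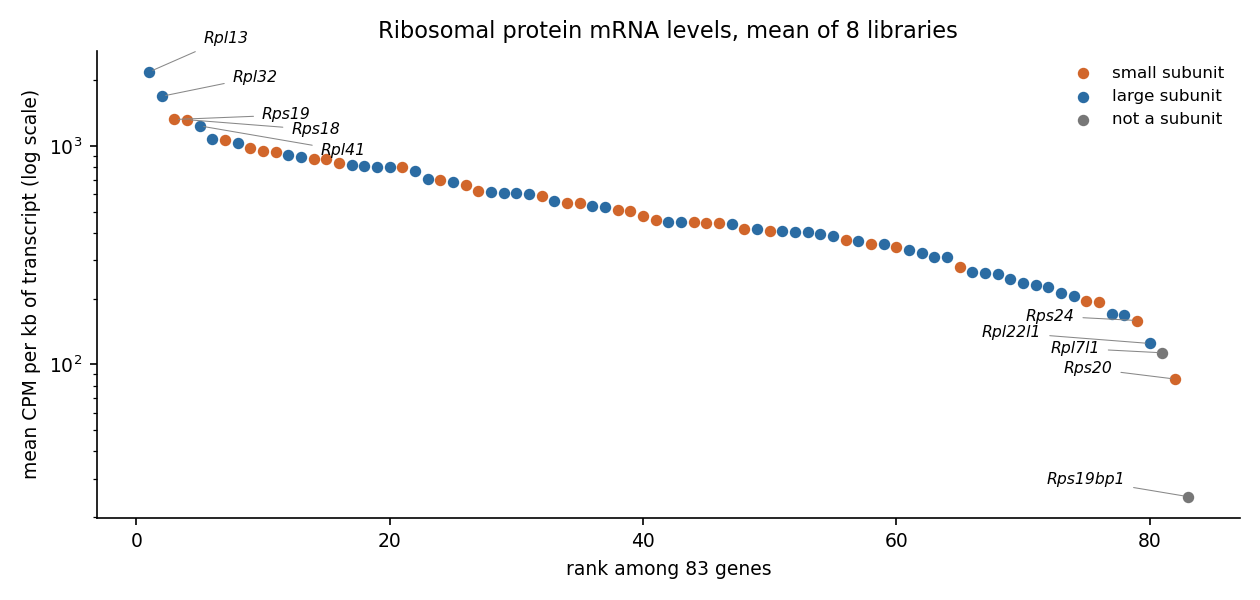
Mean level of each of the 83 genes over the 8 libraries, in CPM per kb of transcript on a log axis, against its rank; colours give the subunit. The levels run from 2182 for Rpl13 to 24.8 for Rps19bp1, and genes of both subunits are mixed along the range.

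Some levels carry reads of copies. Of the 50-base stretches of a member's transcript, a median of 61.2% also occurred in a transcript of another gene, mostly pseudogenes, and over 90% did so in 7 members. Rps27 shared 98.6% with Rps27rt, and Rpl10 shared 92.1% with Rpl10-ps3, which had 60493 counts over the 8 libraries beside 59228 for Rpl10. The split of counts inside these pairs is therefore uncertain. Rps27l shared only 22.4% with other genes, Rpl7l1 12.2% and Rps19bp1 none. In addition, 28 members share exon bases with another gene on the same strand, mostly small nucleolar RNAs, and 19 with one on the other strand, which these unstranded libraries cannot separate.

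As a group, the ribosomal protein mRNAs were lowest in one GFP+ library and highest in another. They made up 3.48% and 3.02% of all counts in the TOXFL GFP+ libraries, against 3.33% and 3.52% in TOXFL GFP- libraries. In the TOXdeltaN GFP+ libraries they made up 3.58% and 4.46%, against 3.54% and 3.67% in TOXdeltaN GFP- libraries. Replicate 2 of TOXFL GFP+ was thus the lowest and replicate 2 of TOXdeltaN GFP+ the highest, and the other 6 libraries lay within 3.33% and 3.67%. In bulk RNA, fewer cells with a high level and less of these mRNAs per cell cannot be told apart. Set against each gene's own mean, the median member was 1.55-fold higher in replicate 2 of TOXdeltaN GFP+ than in replicate 2 of TOXFL GFP+. Of the 83 genes, 77 had their lowest value in replicate 2 of TOXFL GFP+, as did 14.2% of all tested genes, and 81 had their highest value in replicate 2 of TOXdeltaN GFP+, as did 25.4% of all tested genes. Both held for 76 members and for 3.96% of all tested genes.

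The 2 outlying libraries were not alike in other measures. The other genes with transcripts under 1000 bases were 723 genes over 8 CPM on average. In replicate 2 of TOXFL GFP+ their median was -0.05 on the log2 scale, beside -0.30 for the ribosomal protein genes. In the TOXFL GFP- libraries it was lower, at -0.11 and -0.08, so replicate 2 of TOXFL GFP+ did not stand apart in these genes. In replicate 2 of TOXdeltaN GFP+ these short genes were also high, at 0.27, beside 0.33 for the ribosomal protein genes. Mitochondrial transcripts took 0.708% and 0.450% of the counts in TOXFL GFP+ against 0.832% and 0.834% in TOXFL GFP-, and 0.764% and 0.798% in TOXdeltaN GFP+ against 0.909% and 0.894% in TOXdeltaN GFP-. After the trend of counts on gene length was removed within each library, the median member stood at -0.22 in replicate 2 of TOXFL GFP+ and at 0.09 in replicate 2 of TOXdeltaN GFP+. The other 6 libraries lay between -0.03 and 0.07 on that scale. The trend was fitted over the members and other genes together, so it can take up part of the members' own shift. The part of the mitochondrial share in these differences was not tested.

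**Figure D2:**
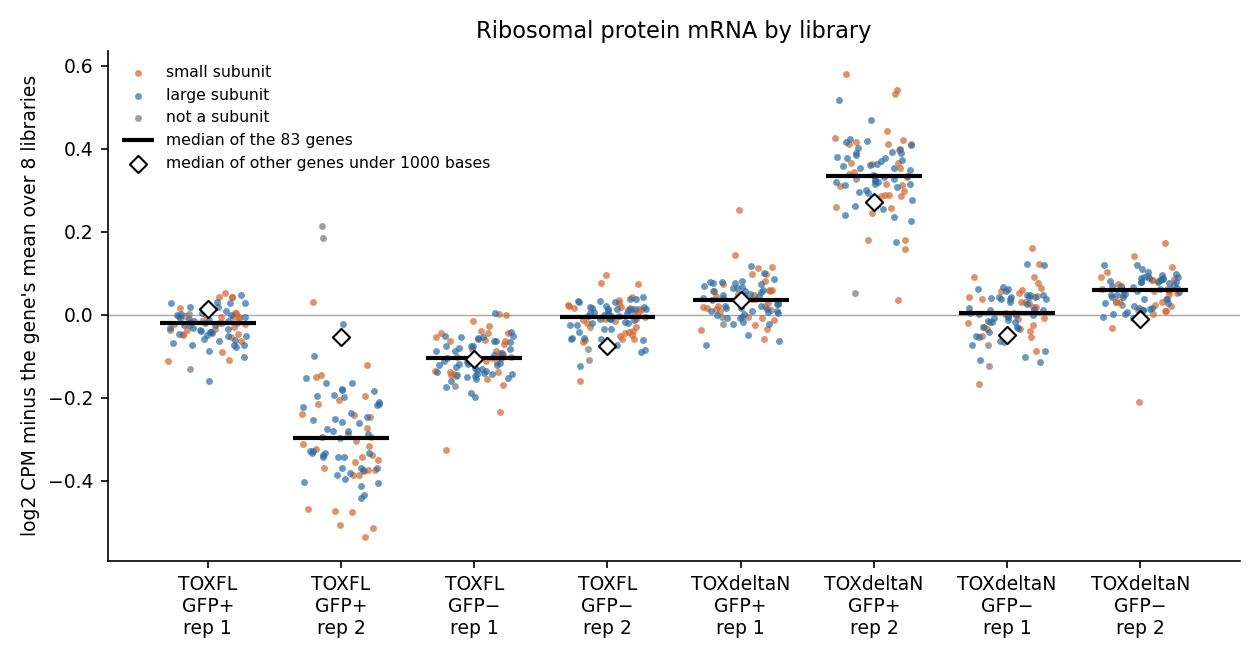
Each point is one of the 83 genes in one library, as log2 CPM minus that gene's mean over the 8 libraries; black lines are the members' medians and diamonds the median of 723 other genes under 1000 bases. The members sit at -0.30 in replicate 2 of TOXFL GFP+ and at 0.33 in replicate 2 of TOXdeltaN GFP+, while the diamonds are at -0.05 and 0.27.

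Small and large subunit genes moved together. Summed counts of the small subunit over those of the large were 0.680 ± 0.0125 in TOXFL GFP+ and 0.687 ± 0.00353 in TOXFL GFP-, and 0.691 ± 0.00158 in TOXdeltaN GFP+ and 0.688 ± 0.00260 in TOXdeltaN GFP- (SD, n = 2 each). The lowest single value, 0.671, was that of replicate 2 of TOXFL GFP+. Within a library most members kept close to the group: measured against the median of the 83 genes, a member's values spanned a median of 0.16 on the log2 scale over the 8 libraries, and 68 members spanned less than 0.25. The widest were Rpl7l1 (0.79), Rps19bp1 (0.61), Rps27l (0.55), Rps27rt (0.49) and Rps27 (0.45), so both genes that are not subunits and all 3 genes of the Rps27 family were the least like the rest.

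**Figure D3:**
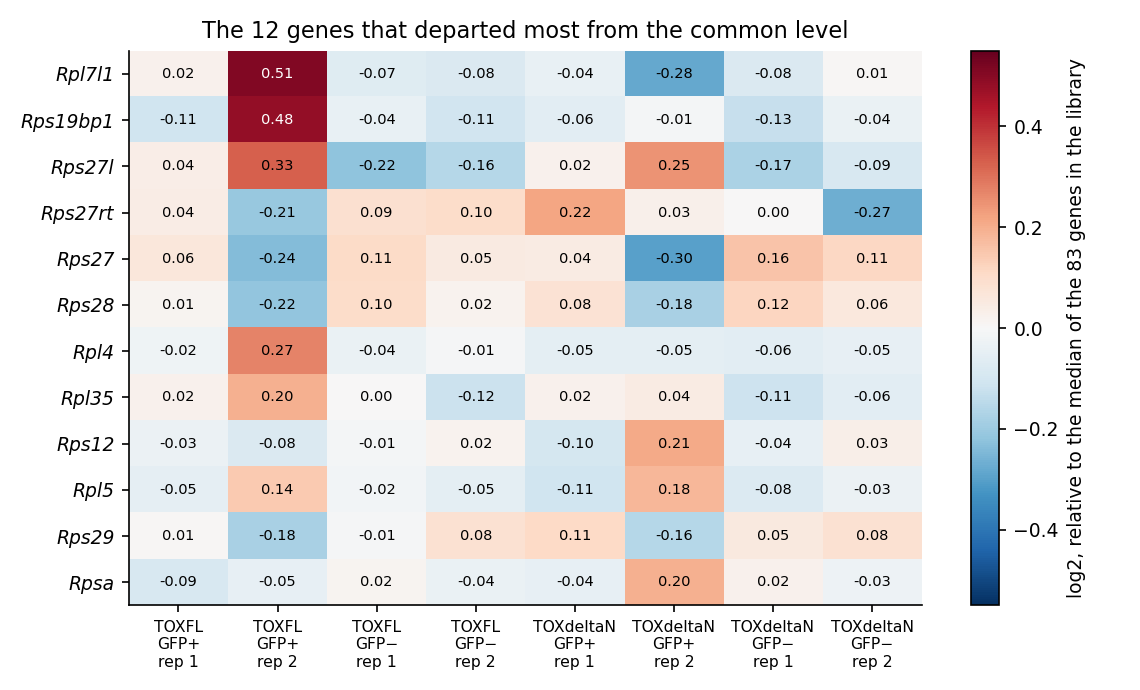
The 12 genes with the widest span, as log2 level relative to the median of the 83 genes in the same library, which is written in each cell. Rps27l lies above 0 in the 4 GFP+ libraries and below 0 in the 4 GFP- libraries, and Rpl7l1 and Rps19bp1 reach 0.51 and 0.48 in replicate 2 of TOXFL GFP+.

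GFP+ cells were set against GFP- cells to ask what carrying a TOX construct went with. Averaged over the constructs, 0 of the 83 genes passed edgeR's quasi-likelihood test at an adjusted p under 0.05, where 2.42% of all 13329 tested genes did. Only Rps27l had an unadjusted p under 0.05, as 10.6% of all tested genes did in the higher direction; DESeq2 called that gene higher and no other, where it called 3.71% of all tested genes higher, and limma-voom called 0. The median log2 fold change of the members was 0.03, with 0.03 for the small and 0.03 for the large subunit, and 55 of the 83 lay above 0. With the length trend removed the median was -0.08, so the sign of this small value depends on that step.

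Rps27l, a close relative of the small subunit protein Rps27, was the member with the largest difference. It had 177 and 179 CPM in TOXFL GFP+ libraries, against 140.0 and 157 CPM in TOXFL GFP- libraries. In TOXdeltaN GFP+ libraries it had 183 and 262 CPM, against 156 and 172 CPM in TOXdeltaN GFP- libraries. All 4 GFP+ values lay above all 4 GFP- values, which held for this 1 member and for 8.22% of all tested genes. Its log2 fold change averaged over constructs was 0.35 (SE 0.11), with an edgeR adjusted p of 0.110. With the replicate number as a block, the log2 fold change was 0.35 (SE 0.080) and the edgeR adjusted p 0.022, and it was the 1 member called, where 12.7% of all tested genes were called in that fit. Without TOXdeltaN GFP+ replicate 1 it was also called without the block (log2 fold change 0.47, edgeR adjusted p = 0.00469). In the blocked fit the call was lost without TOXFL GFP+ replicate 1 or any one of the 4 GFP- libraries (edgeR adjusted p = 0.0790 to 0.151), and kept without each of the other 3 libraries. Within the constructs the log2 fold change was 0.26 for TOXFL (edgeR adjusted p = 0.502) and 0.44 for TOXdeltaN (edgeR adjusted p = 0.352), and the interaction, -0.17, was not called by edgeR.

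Rps27, the main gene of this family, gave values on the other side. It had 246 and 165 CPM in TOXFL GFP+ libraries against 239 and 246 CPM in TOXFL GFP- libraries, and 252 and 245 CPM in TOXdeltaN GFP+ libraries against 267 and 269 CPM in TOXdeltaN GFP- libraries. Its log2 fold change averaged over constructs was -0.17 (SE 0.11), with an edgeR adjusted p of 0.379, and the groups overlapped within TOXFL. Without TOXFL GFP+ replicate 2 it was -0.05 (SE 0.071), and without TOXdeltaN GFP+ replicate 2 it was -0.16 (SE 0.12). Rps27rt, whose letters are nearly those of Rps27, had 72.8 and 50.5 CPM in TOXFL GFP+ against 71.0 and 76.6 CPM in TOXFL GFP-, and 85.5 and 92.4 CPM in TOXdeltaN GFP+ against 72.0 and 62.0 CPM in TOXdeltaN GFP-. Its interaction was the largest of any member, at -0.67 on the log2 scale (SE 0.23), with an edgeR adjusted p of 1. It was -0.43 without TOXFL GFP+ replicate 2 and -0.61 without TOXdeltaN GFP+ replicate 2.

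The ratio of Rps27l to Rps27 counts set GFP+ libraries apart in both constructs. It was 0.722 and 1.09 in TOXFL GFP+ against 0.586 and 0.638 in TOXFL GFP-. It was 0.723 and 1.07 in TOXdeltaN GFP+ against 0.586 and 0.638 in TOXdeltaN GFP-. The ratio was 1.45-fold higher in GFP+ libraries (log2 difference 0.53), and it was higher in 4 of 4 same-numbered pairs. A two-sided exact permutation test over the 8 libraries gave p = 0.0286, the smallest that 70 splits allow, and 0.114 after Benjamini-Hochberg adjustment over the 4 gene pairs compared. That test does not use the replicate numbers; with same-numbered libraries paired, an exact sign-flip test gave p = 0.125, the smallest that 4 pairs allow. At each replicate number the 2 constructs gave nearly the same ratio, while replicates 1 and 2 of GFP+ cells differed more than the constructs did. With Rps27 and Rps27rt added together below the line the ratio was 1.39-fold higher in GFP+ libraries. Over the geometric mean of the other 82 members Rps27l was 1.24-fold higher. Each had an unadjusted exact permutation p of 0.0286, again the smallest possible. Both denominators were chosen after seeing the data and are set under the same Rps27l counts, so these tests are not further evidence.

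**Figure D4:**
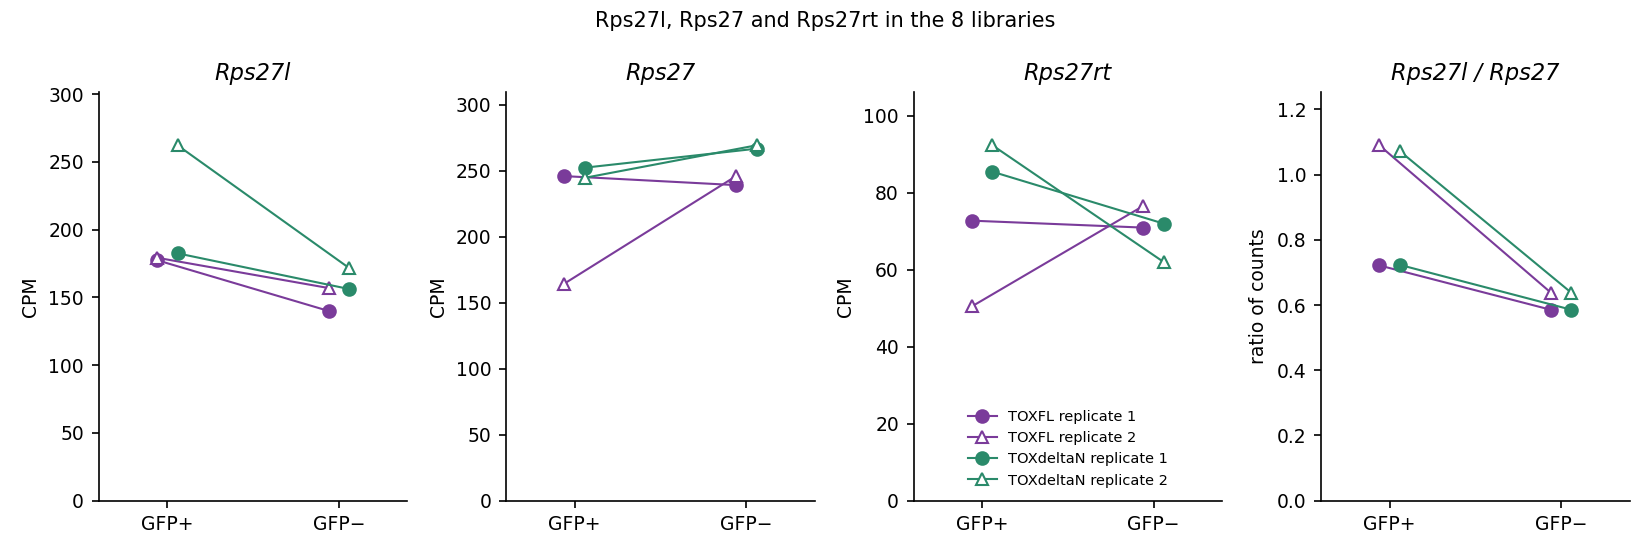
CPM of Rps27l, Rps27 and Rps27rt, and the ratio of Rps27l to Rps27 counts, in the 8 libraries, with lines joining same-numbered GFP+ and GFP- libraries of a construct. All 4 lines fall from GFP+ to GFP- for Rps27l and for the ratio, whose GFP+ values are 0.722 to 1.09 and whose GFP- values are 0.586 to 0.638.

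After Benjamini-Hochberg adjustment none of the 4 pairs of copies passed the exact test at 0.05. For the 3 pairs other than Rps27l over Rps27 the unadjusted p was above 0.05 as well. Rpl36al over Rpl36a differed by 0.06 on the log2 scale (exact permutation p = 0.0857), Rpl22l1 over Rpl22, an RNA-binding protein needed for T cell development in mice, by 0.02 (exact permutation p = 0.657), and Rpl7l1 over Rpl7 by 0.16 (exact permutation p = 0.543). Rpl7l1 over Rpl7 was 0.256 and 0.354 in TOXFL GFP+ against 0.229 and 0.223 in TOXFL GFP-, and 0.245 and 0.194 in TOXdeltaN GFP+ against 0.223 and 0.241 in TOXdeltaN GFP-. Without replicate 2 of TOXdeltaN GFP+ this difference was 0.30, with an unadjusted exact permutation p of 0.0286, the smallest possible there. Of the 8 runs that each left out 1 library, only this 1 had an exact permutation p under 0.05.

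After Rps27l, the members with the largest positive log2 fold changes averaged over constructs were Rps19bp1 (0.19), Rpl35 (0.17), Rpl38 (0.15) and Rpl7l1 (0.13). Among the largest negative ones were those of Rps27 (-0.17), Rps28 (-0.11), Rps29 (-0.08) and Rpl30 (-0.07). None of these was called by edgeR without the block or with it. With block and length trend together, 7 members were called by edgeR, where 12.4% of all tested genes were. Among them were Rps27l, higher (0.21, edgeR adjusted p = 0.0148), and Rps27 (-0.33, edgeR adjusted p = 0.0116), Rps28 (-0.26), Rpl30 (-0.21), Rpl23a (-0.17) and Rps18 (-0.15), lower. Rps28, a small subunit protein, had 167 and 118 CPM in TOXFL GFP+ against 168 and 169.7 CPM in TOXFL GFP-, and 182 and 187 CPM in TOXdeltaN GFP+ against 183 and 182 CPM in TOXdeltaN GFP-. Only replicate 2 of TOXFL GFP+ stood clear of the rest for this gene before the length trend was removed, and without that library its log2 fold change averaged over constructs was 0.0014 (SE 0.072).

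Within TOXFL, GFP+ cells gave a median log2 fold change of -0.11 over GFP- cells, -0.13 for the small and -0.09 for the large subunit, with 72 of the 83 genes below 0. edgeR called 0 members, where 0.045% of all tested genes were called; 1 member, Rpl7l1, was higher at an unadjusted p under 0.05, as were 6.26% of all tested genes, and DESeq2 and limma-voom called 0. Without replicate 2 of TOXFL GFP+ the median was 0.02, and without replicate 1 of TOXFL GFP+ it was -0.26. In CPM, 8 members lay lower in both GFP+ libraries than in both GFP- libraries (25.5% of all tested genes did) and 3 lay higher, namely Rps27l, Rpl35 and Rpl7l1 (24.9% of all tested genes did). Rpl7l1, a nucleolar factor of large subunit assembly, had 148 and 171 CPM in TOXFL GFP+ against 131 and 139 CPM in TOXFL GFP- (log2 fold change 0.24, SE 0.10, edgeR adjusted p = 0.359).

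Within TOXdeltaN, GFP+ cells gave a median log2 fold change of 0.16 over GFP- cells, 0.16 for each subunit, with 82 of the 83 genes above 0. edgeR called 0 members, where 0.03% of all tested genes were called; 3 members (Rpl35, Rps27l and Rps27rt) were higher at an unadjusted p under 0.05, as were 6.05% of all tested genes, and DESeq2 and limma-voom called 0. Here too the value rested on replicate 2: without it the median was -0.0014, and with the length trend removed it was -0.0049. Without replicate 1 instead, edgeR called 20 members higher, where 4.1% of all tested genes were called higher, with the lone GFP+ library assumed to vary like the other groups. In CPM, 24 members lay higher in both GFP+ libraries (21.1% of all tested genes did) and 1, Rps27, lay lower (20.8% did). Rpsa, the laminin-receptor protein of the small subunit, was not among the 24 and was high in replicate 2 alone. It had 862 and 1252 CPM in TOXdeltaN GFP+ against 883 and 885 CPM in TOXdeltaN GFP-. Rpl5, the 5S RNA-binding protein of the large subunit, had 409 and 616 CPM in TOXdeltaN GFP+ against 409 and 439 CPM in TOXdeltaN GFP-. For both genes only replicate 2 lay above the GFP- libraries.

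**Figure D5:**
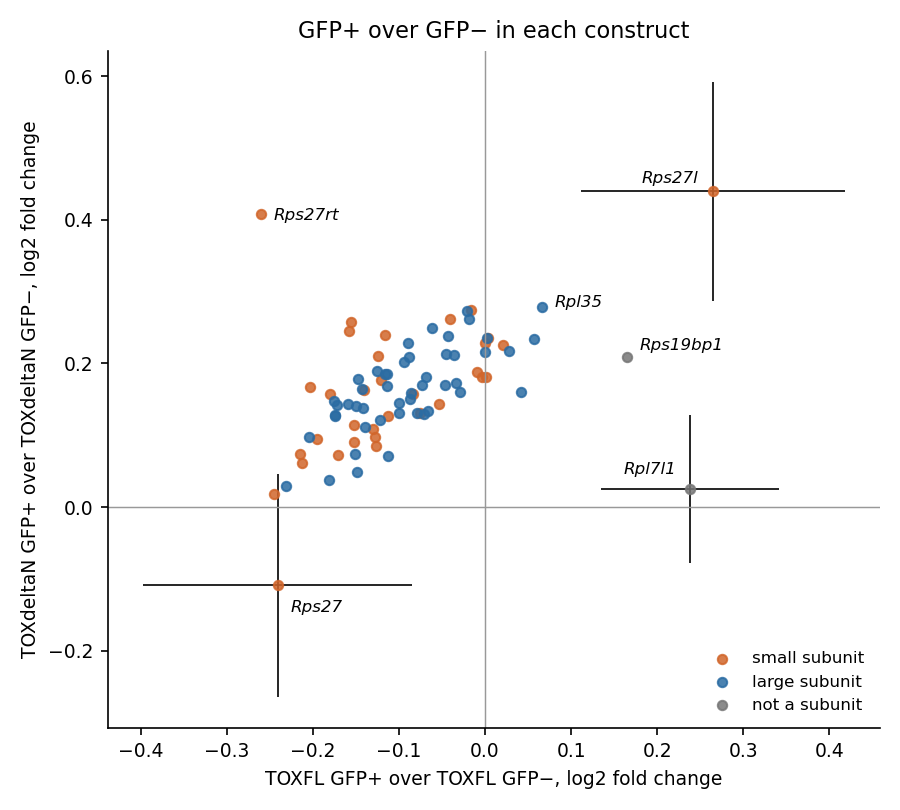
log2 fold change of each of the 83 genes in GFP+ over GFP- cells, for TOXFL on the x axis and TOXdeltaN on the y axis, with bars of 1 SE for 3 genes. The cloud sits around medians of -0.11 and 0.16, and Rps27l, Rps27, Rps27rt, Rps19bp1 and Rpl7l1 lie outside it.

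The constructs were also compared directly. In GFP+ cells, 82 of the 83 genes had lower values with TOXFL than with TOXdeltaN, with a median log2 fold change of -0.34, -0.37 for the small and -0.34 for the large subunit. No member was called by edgeR, where 0% of all tested genes were called and the smallest adjusted p of a member was 0.822. At an unadjusted edgeR p under 0.05 there were 72 members, all lower, where 3.55% of all tested genes were lower. DESeq2 and limma-voom called 0 members. These genes move together across libraries, so the counts are not separate pieces of evidence. In CPM, 73 members were lower in both TOXFL GFP+ libraries than in both TOXdeltaN GFP+ libraries, against 16.1% of all tested genes. Without TOXFL GFP+ replicate 2 this held for 74 members and 30.4% of all tested genes, and without TOXdeltaN GFP+ replicate 2 for 74 members and 32.4%. The member with the largest difference was Rps27rt (-0.53, SE 0.16), then Rpsa (-0.51), Rps12 (-0.48), Rpl41 (-0.45) and Rps24 (-0.44), and Rpl7l1 alone was above 0 (0.09).

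Replicate 1 and replicate 2 differed in size here. Rplp0, the stalk protein that anchors Rplp1 and Rplp2, had 1318 and 1236 CPM in TOXFL GFP+ against 1395 and 1754 CPM in TOXdeltaN GFP+. Rpl11, the partner of Rpl5 in binding Mdm2, had 293 and 241 CPM in TOXFL GFP+ against 311 and 376 CPM in TOXdeltaN GFP+. Rps6 had 839 and 787 CPM in TOXFL GFP+ against 837 and 1094 CPM in TOXdeltaN GFP+, so replicates 1 were nearly equal and replicates 2 far apart. With the length trend removed the median over the members was -0.16. Without replicate 1 of TOXdeltaN GFP+ edgeR called 45 members lower, where 1.41% of all tested genes were called lower, and the median was -0.49. The median was -0.22 without replicate 2 of TOXFL GFP+ and -0.19 without replicate 2 of TOXdeltaN GFP+.

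In GFP- cells, which did not show the construct, 82 of the 83 genes again had lower values with TOXFL than with TOXdeltaN, but by less, with a median log2 fold change of -0.09 for all members and for each subunit. edgeR called 0 members, where 0% of all tested genes were called, 0 had an unadjusted p under 0.05, and DESeq2 and limma-voom called 0. In CPM, 48 members were lower in both TOXFL GFP- libraries, against 16.6% of all tested genes. The difference between the constructs in the effect of GFP status had a median of -0.25 over the members, with 82 of 83 below 0, and ran from -0.41 without TOXFL GFP+ replicate 1 to -0.11 without TOXdeltaN GFP+ replicate 2. No member was called by edgeR for it, where 0% of all tested genes were called; 1, Rps27rt, was lower at an unadjusted p under 0.05, as were 1.53% of all tested genes, and DESeq2 and limma-voom called 0. In the blocked fit without TOXdeltaN GFP+ replicate 1, edgeR called 14 members lower, where 0.612% of all tested genes were called lower.

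Genes around the ribosomal proteins were read from fixed lists, with edgeR averaged over the constructs. Fau, whose product is cut to release a ribosomal protein, and Rack1, a protein of the small subunit, were not called and went with the members, at -0.39 and -0.33 for TOXFL GFP+ over TOXdeltaN GFP+ cells on the log2 scale. In that comparison all 20 other TOP mRNAs, such as translation factors, were below 0 too, with a median of -0.26 and 0 called. At an unadjusted edgeR p under 0.05 there were 10, where 3.55% of all tested genes were lower. With the length trend removed their median was -0.22, with 1 above 0, beside -0.16 for the members. Averaged over the constructs, 0 of the 20 were called, with 1 at an unadjusted p under 0.05 and a median of 0.04. Of 14 chaperones and importers of ribosomal proteins, 0 were called in that average, with 1 at an unadjusted p under 0.05. At that unadjusted p, 10.6% of all tested genes were higher and 11.3% lower. With the block, edgeR called Ybx1 higher among the TOP mRNAs, where 6.04% of all tested genes were called higher. Of 18 regulators, 2 fell and 0 rose, where 1.08% of all tested genes fell: Pdcd4, an inhibitor of the helicase eIF4A that S6 kinase marks for decay (-0.38, SE 0.080, edgeR adjusted p = 0.045), and Rictor, a subunit of mTOR complex 2 (-0.34, SE 0.074, edgeR adjusted p = 0.046). With the length trend removed Pdcd4 kept its edgeR call (-0.39, adjusted p = 0.0325) and Rictor lost it (-0.10, adjusted p = 0.577), and with the block as well edgeR called Pdcd4 and Myc lower and not Rictor. Pdcd4 had 126 and 102 CPM in TOXFL GFP+ against 159 and 156 CPM in TOXFL GFP-, and 119 and 127 CPM in TOXdeltaN GFP+ against 157 and 144 CPM in TOXdeltaN GFP-.

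Of 10 genes of the p53 and ribosomal protein stress axis, 3 rose and 0 fell, where 1.34% of all tested genes rose. Cdkn1a, the cell cycle inhibitor p21, had 46.2 and 62.1 CPM in TOXFL GFP+ against 18.8 and 26.5 CPM in TOXFL GFP-, and 49.7 and 78.4 CPM in TOXdeltaN GFP+ against 20.9 and 32.2 CPM in TOXdeltaN GFP-. Its log2 fold change averaged over constructs was 1.26 (SE 0.19, edgeR adjusted p = 0.022). Phlda3, a p53 target that restrains Akt, gave 0.96 (SE 0.18, edgeR adjusted p = 0.034), and Sesn2, a stress-induced inhibitor of mTOR complex 1, gave 0.46 (SE 0.069, edgeR adjusted p = 0.021). In all 3 genes, which are named because they were called higher, every GFP+ library lay above every GFP- library. The same held for 8.22% of all tested genes. With the replicate block edgeR also called Bax, Ccng1 and Znhit3 higher, where 6.04% of all tested genes were called higher. Trp53 (-0.12, edgeR adjusted p = 0.277) and Mdm2 (0.16, edgeR adjusted p = 0.223) were called neither in this fit nor with the block. With block and length trend together edgeR called Trp53 lower (-0.18, adjusted p = 0.0345) and Mdm2 higher (0.19, adjusted p = 0.0285), and Znhit3 was not called (0.21, adjusted p = 0.0590). The part of these genes in the difference in Rps27l was not tested.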

How the data were processed

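RNA from 8 sorted populations (4 groups of 2 libraries) was sequenced with the SMART-Seq v4 and Nextera XT kits from 8 ng of RNA, per the labels' protocols. The deposited values are expected counts per gene made by the authors, with bcl2fastq 2.20, cutadapt, STAR 2.6.1, RSEM 1.2.28 and GRCm38 named in the submitters' processing notes; the annotation release is not given in the sources used here. Expected counts were rounded to whole numbers. The 92 spike-in rows, all 0, were left out.

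The 13329 genes that passed edgeR's filterByExpr were fitted together with edgeR 4.0.16 (R 4.3.3), TMM factors, 4 group means and quasi-likelihood tests, adjusted by Benjamini-Hochberg over all of them, at a threshold of 0.05. All 83 members passed. The code was tested on simulated data. Alternatives were DESeq2 1.42.0, limma-voom (limma 3.58.1), other scaling, no filter, a replicate block, a length correction, leaving out each library, and other denominators for Rps27l. CPM per kb uses the shortest principal transcript in GENCODE M21, matched for 31173 of 31815 gene IDs with their version. The length correction instead used the median length over a gene's coding transcripts, which for Rps15a was 5130 bases against 640 for the principal one. Its trend was fitted with the members included. Ratios of copies used counts plus 0.5 and exact permutation tests.

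Same-numbered libraries deviated together in every pair of groups (correlation over all tested genes 0.168 to 0.241), which the data show and the labels do not explain. The blocked fit treats them as paired. With 2 libraries per group, these correlations cannot establish that they are, so calls of the blocked fit rest on that reading. Over the members alone the correlation was 0.0589 to 0.417, lowest between TOXFL GFP+ and TOXFL GFP-, and the members' median in replicate 1 minus replicate 2 was 0.28 in TOXFL GFP+ and -0.30 in TOXdeltaN GFP+ (log2), so the numbers do not pair the level of the whole group. Depth gives every member at least 501 counts per library, and no depth alternative was run.

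The members, lists and tests were chosen with earlier results of these data known. Named members are those called without or with the block, up to 10 in each direction, or else the 5 with the largest changes, the 5 highest and 5 lowest by level, the pairs of copies, a set of well-known members, and called genes of the other lists. Some of these are not reported here.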

Additional observations from a re-analysis of the deposited data

How the results depend on the processing

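Members called, averaged over constructs (0 in the analysis as reported): 1 with no filter on low counts, 1 with DESeq2 and 1 with the replicate block, each time Rps27l, higher. Of all tested genes, 3.27%, 3.71% and 6.04% were called higher in these runs. With replicate block and length correction 7 members were called, where 12.4% of all tested genes were. Within TOXFL the block with length correction gave 1 (lower, as were 2.59% of all tested genes). With no filter there was 1 higher for TOXdeltaN GFP+ over GFP- (0.855% of all tested genes) and 9 lower for TOXFL GFP+ over TOXdeltaN GFP+ (0.402% of all tested genes). The replicate block changed no other call of a member. Leaving out each library in turn gave 0 to 5 members averaged over constructs (7.68% of all tested genes were called higher at the highest), 0 to 20 for TOXdeltaN and 0 to 45 between GFP+ groups, the highest each time without TOXdeltaN GFP+ replicate 1. Leaving libraries out of the blocked fit, chosen after seeing the data, gave 0 to 20 averaged over constructs (11.8% of all tested genes were called higher at the highest), with 14 lower for the interaction (0.612%), 47 higher for TOXdeltaN (7.77% of all tested genes) and 78 lower between GFP+ groups (5.48%) without TOXdeltaN GFP+ replicate 1.

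Medians of the members (log2): for TOXdeltaN GFP+ over GFP-, 0.16 as reported, -0.0049 with length correction and -0.0048 with replicate block and length correction; leaving out libraries gave -0.0014 to 0.30. Between GFP+ groups, -0.34 as reported, -0.16 with either length correction and -0.49 to -0.19 with libraries left out. The interaction ran from -0.41 to -0.11, TOXFL GFP+ over GFP- from -0.26 to 0.02, the average over constructs from -0.05 to 0.11, and the GFP- groups from -0.13 to -0.04.

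Rps27l averaged over constructs ran from 0.21 to 0.47 with libraries left out and was above 0 in every alternative run. It was called without TOXdeltaN GFP+ replicate 1, and in the blocked fit without 3 of the 8 libraries in turn. Its ratio to Rps27 was 0.43 to 0.63 with libraries left out; 4 of these 8 exact tests gave p = 0.0857, each without a GFP- library, and the paired sign-flip test of the same 0.53, which cannot go below 0.125, gave 0.125. Rpl7l1 over Rpl7 ran from 0.0071 to 0.30, the highest without TOXdeltaN GFP+ replicate 2. Results rest on 2 libraries per group, 2 of the 8 stood apart, and the effect of reads shared with pseudogenes was not measured, nor was depth varied. The other denominators for Rps27l, and the values of Rps27, Rps28, Rps27rt and the count of 73 without the replicate 2 libraries, were also chosen after seeing the data. The causes were not tested.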
